A study of Homo sapiens with 6 samples.

Results

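Transcripts of 9 RNA binding proteins that recognize AU-rich and other 3′UTR elements were examined in MDA-MB-231 cells. The members are *ELAVL1*, *ZFP36*, *ZFP36L1*, *ZFP36L2*, *KHSRP*, *TIA1*, *TIAL1*, *PUM2* and *CELF1*, chosen by gene symbol. All 9 were found among the 15917 genes of the authors' table. MDA-MB-231 is an established human breast cancer line of mesenchymal character. Total RNA was sequenced in 6 libraries, 2 labelled shCTRL (genotype WT), 2 labelled shRBMS3-B3 (genotype RBMS3 KD1) and 2 labelled shRBMS3-C3 (genotype RBMS3 KD2). Each of the 2 hairpins targeted *RBMS3*, an RNA binding protein that the study linked to mRNA stability, and no agent or time point separated the groups. By the study's methods, the hairpins were delivered by lentivirus into luciferase-labeled cells that were then selected with puromycin. The value analysed here was the authors' mean normalized count of each gene, a mean over libraries that was not divided by transcript length. A supplementary legend gives 2 replicates of knockdown and 2 of control cells for the comparison this table belongs to, without naming the hairpin, so which of the 6 libraries entered the mean is not settled here. A mean of this kind carries no spread and mixes control and knockdown cells. No difference between the groups was therefore tested here, no order of levels could be set against replicate error, and the depth of each library is unknown.

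AU-rich elements are stretches of A and U in the 3′UTR, often built on the pentamer AUUUA, that mark many short-lived mRNAs such as those of cytokines and early response genes. Proteins that bind them act in opposite directions. ZFP36 (tristetraprolin) and its paralogs ZFP36L1 and ZFP36L2 recruit the deadenylation machinery and promote decay, and KHSRP also promotes decay of AU-rich mRNAs. ELAVL1 (HuR) binds U-rich and AU-rich sequence and mostly stabilizes its targets. TIA1 and TIAL1 repress translation and take part in stress granules, PUM2 represses mRNAs with a Pumilio element, and CELF1 binds GU-rich elements.

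Since these proteins read 3′UTRs, the 3′UTRs of their own mRNAs were searched for AU-rich, U-rich and Pumilio elements. The GU-rich elements that CELF1 binds were not searched. The sites shown first are examples of the elements that are counted further on. Sequences are from hg38, the build named in the submitters' processing notes, and are given 5′ to 3′ on the sense strand as DNA. The first pair are the densest runs of the heptamer TATTTAT, which reads UAUUUAU in RNA, with each match in capitals. The *ELAVL1* run lies at chr19:7961839-7961867 on the minus strand and holds 4 matches. The *ZFP36* run lies at chr19:39409192-39409213 on the plus strand and holds 2.
ELAVL1: TATTTATaccTATTTATgTATTTATTTAT
ZFP36: TATTTATgacgacttTATTTAT

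In the paralogs of *ZFP36* the heptamers stand farther apart, and the first match of each is shown in capitals with 10 bases on either side. The *ZFP36L1* site lies at chr14:68788337-68788363 and the *ZFP36L2* site at chr2:43223449-43223475, both on the minus strand.
ZFP36L1: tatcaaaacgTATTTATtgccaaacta
ZFP36L2: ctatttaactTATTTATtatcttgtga

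The Pumilio element TGTANATA was found in *TIAL1* and *PUM2* alone among the members, and the first match in each is in capitals. The sites lie at chr10:119574860-119574887 and chr2:20251143-20251170, both on the minus strand.
TIAL1: tgatacatatTGTAAATAttcaataact
PUM2: tttatagagaTGTATATAgaattatagt

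The element that the study assigned to RBMS3 is 7 bases long and reads A, G or T, then A or T, then ATA, then A or T, then A. It is referred to here as the RBMS3 element. Its first match in *KHSRP*, the most abundant member, and in *ZFP36*, the member with the most matches per length, is in capitals. The *KHSRP* site lies at chr19:6413774-6413800 on the minus strand and the *ZFP36* site at chr19:39409225-39409251 on the plus strand.
KHSRP: aaagcagaacTTATAAAattatatata
ZFP36: tttatagtatTTATATAtattgggtcg

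The first question was how abundant each member was. *KHSRP* (ENSG00000088247, chromosome 19 from 6413102 to 6424811, minus strand) had the highest mean normalized count, 9926, which was rank 249 in the table. *ZFP36L1* (ENSG00000185650, chromosome 14 from 68787660 to 68796253, minus strand) followed with 3537. *CELF1* (ENSG00000149187, chromosome 11 from 47465933 to 47565569, minus strand) had 2833 and *ELAVL1* (ENSG00000066044, chromosome 19 from 7958573 to 8005659, minus strand) 2544. These 4 members lay between percentile 90.5 and percentile 98.4 of the listed genes.

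*TIAL1* (ENSG00000151923, chromosome 10 from 119571802 to 119597029, minus strand) had a mean normalized count of 1536 and *PUM2* (ENSG00000055917, chromosome 2 from 20248691 to 20352234, minus strand) of 1505, at percentiles 83.2 and 82.9. *ZFP36L2* (ENSG00000152518, chromosome 2 from 43222402 to 43226606, minus strand) had 483, near the middle of the table at percentile 56.8. Below the table's median of 364 stood *TIA1* (ENSG00000116001, chromosome 2 from 70209444 to 70248660, minus strand) with 297 and *ZFP36* (ENSG00000128016, chromosome 19 from 39406847 to 39409412, plus strand) with 195. The 7 other members were above that median. The range from *ZFP36* to *KHSRP* was 50.9-fold.

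Read counts grow with transcript length, so members were compared with each other per kilobase of their representative spliced transcript. On this scale *KHSRP* had 2321 counts per kilobase and *ZFP36L1* 1172. *ELAVL1* had 420, *TIAL1* 401, *CELF1* 348 and *PUM2* 239 counts per kilobase. *ZFP36L2* had 131, *ZFP36* 112 and *TIA1* 64.1 counts per kilobase, and these 3 fell under the median of 153 over the 12331 genes with a coding transcript. *KHSRP* alone made up 44.6% of the summed counts per kilobase of the 9 members. Its share was 29.6% when coding length was used in place of transcript length, and 49.2% with each gene's longest coding transcript. *CELF1* moved from position 3 by count to position 5 per kilobase of its representative transcript, which at 8132 bases is the longest of the group, and was at position 4 with coding length or with each gene's longest coding transcript. *TIA1* took the last place from *ZFP36*, whose transcript of 1747 bases is the shortest. Without a spread between libraries, it is not known whether neighbours in this order differ.

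**Figure D1:**
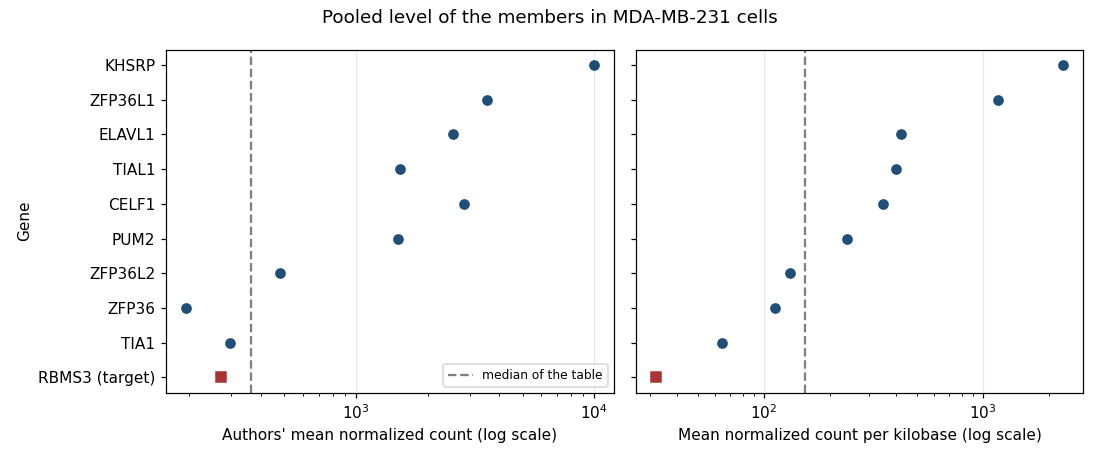
Pooled level of the 9 members (circles) and of the knockdown target *RBMS3* (square), one gene per row, as the authors' mean normalized count (left, log axis) and as that count per kilobase of transcript (right, log axis); dashed lines are the medians of the table, 364 and 153. *KHSRP* stands highest on both axes, and *TIA1*, *ZFP36* and *ZFP36L2* lie left of the median per kilobase. The values are means over libraries and have no error bars.

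Paralogs were unequal in level. Among the decay-promoting zinc finger proteins, *ZFP36L1* was 8.97-fold above *ZFP36L2* and 10.5-fold above *ZFP36* per kilobase, while *ZFP36L2* was 1.17-fold above *ZFP36*. The size of these differences depended on the length used. *ZFP36L1* was 7.0-fold above *ZFP36* with the longest coding transcripts and 17.5-fold with coding length, and it was 5.96-fold and 10.7-fold above *ZFP36L2*. With coding length *ZFP36L2* was 1.63-fold above *ZFP36*. *TIAL1* was 6.26-fold above *TIA1* per kilobase, and 4.72-fold to 5.32-fold with the other lengths. *FUBP3* with 606 and *FUBP1* with 309 counts per kilobase were lower than their relative *KHSRP* by factors of 3.83 and 7.50, the latter being 4.12 with coding length. The neuronal paralogs of *ELAVL1*, namely *ELAVL2*, *ELAVL3* and *ELAVL4*, were not among the listed genes, whose lowest mean normalized count is 26.7. Of the CELF family, *CELF2* had 93.8 counts per kilobase and *CELF4* 16.7, against 348 for *CELF1*, and *CELF3*, *CELF5* and *CELF6* were not listed. *RBMS3* itself had a mean normalized count of 272, or 32.1 per kilobase, less than any member on the second scale. With coding length it had 207 counts per kilobase, above the 199 of *ZFP36*. That mean includes knockdown cells in an unknown share.

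Annotation limits some of these levels. On the same strand, *TIA1* overlaps *C2orf42*, *CELF1* overlaps *RN7SL652P* and another annotated gene, *KHSRP* contains *MIR3940*, and *ZFP36L1* overlaps an unnamed gene. These overlaps are between whole gene spans, introns included. Whether exons overlap, and whether reads could have been counted for either gene, was not tested. *ZFP36L1* had 779 counts per kilobase with its longest coding transcript in place of the representative one, and kept position 2.

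The members' 3′UTRs were long. In 8 of 9 members the 3′UTR exceeded the median of 1379 bases over the 12274 listed genes with a 3′UTR. *CELF1* had the longest with 6293 bases, and *ELAVL1* had 4910 bases, which made up 81.1% of its transcript. *TIA1* had 3275 bases, *PUM2* 2848 and *TIAL1* 2200. *KHSRP*, *ZFP36L2* and *ZFP36L1* were close in length with 1922, 1917 and 1871 bases. *ZFP36*, with 708 bases, was the exception. The share of A and U ranged from 48.4% in *KHSRP* to 68.7% in *TIAL1*, and was above the median of 57.9% in 5 of 9 members, *ZFP36L1*, *ZFP36L2*, *TIA1*, *TIAL1* and *PUM2*.

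Because a long 3′UTR holds more matches of any short sequence, each member was set beside the listed genes whose 3′UTR was similar in length. Similar means that the longer of the pair exceeded the shorter by at most 25%. These genes were matched on length alone and not on A and U content, whose weight on the numbers was not tested. The pentamer ATTTA, which reads AUUUA in RNA, was present in all 9 members, as in 73.9% of all 12274 genes. Among genes of similar length the share with a pentamer ran from 66.2% for *ZFP36* to 99.7% for *CELF1*. *ELAVL1* and *TIA1* had 13 pentamers each, *CELF1* 10, *PUM2* 9 and *ZFP36L1* 8. *ZFP36*, *ZFP36L2* and *TIAL1* had 5 each, and *KHSRP* had 1. The 5 matches in the short 3′UTR of *ZFP36* exceeded the number in 93.5% of 1339 genes of similar length, whose median was 1. The lone match of *KHSRP* exceeded the number in 10.3% of 1908 such genes, whose median was 4.

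The heptamer TATTTAT contains the pentamer and is closer to the sequence that the zinc fingers of the ZFP36 family prefer. It occurred in 8 of 9 members and in 37.0% of all genes. Among genes of similar length the share with a heptamer ran from 22.8% for *ZFP36* to 75.5% for *CELF1*. It was 71.8% for *ELAVL1*, 58.6% for *TIA1* and 55.0% for *PUM2*, so length accounts for part of this contrast in presence. *ELAVL1* had 5 heptamers, and *ZFP36*, *ZFP36L1* and *ZFP36L2* had 3 each. Each of these 4 numbers exceeded that of at least 95.3% of genes with 3′UTRs of similar length, with 98.7% for *ZFP36*, where the median was 1 for *ELAVL1* and 0 for the ZFP36 family. *TIA1*, *TIAL1*, *PUM2* and *CELF1* had 1 heptamer each, and *KHSRP* had none. For *TIA1*, *PUM2* and *CELF1* this number equalled the median at similar length.

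The heptamers were clustered in some members and spread in others. Positions refer to the annotated 3′UTR of the representative transcript. Which 3′UTR form these cells express, on which the levels per kilobase also depend, was not tested. In *ELAVL1* all 5 lay within 41 bases, from base 1604 to base 1644 after the stop codon, although the annotated 3′UTR continues for 3266 bases. In *ZFP36* the 3 matches lay within 47 bases, from base 493 to base 539. In *ZFP36L1* and *ZFP36L2* they spanned 266 and 243 bases. The single heptamer of *TIA1*, *TIAL1* and *PUM2* began close to the stop codon, at bases 112, 93 and 115.

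**Figure D2:**
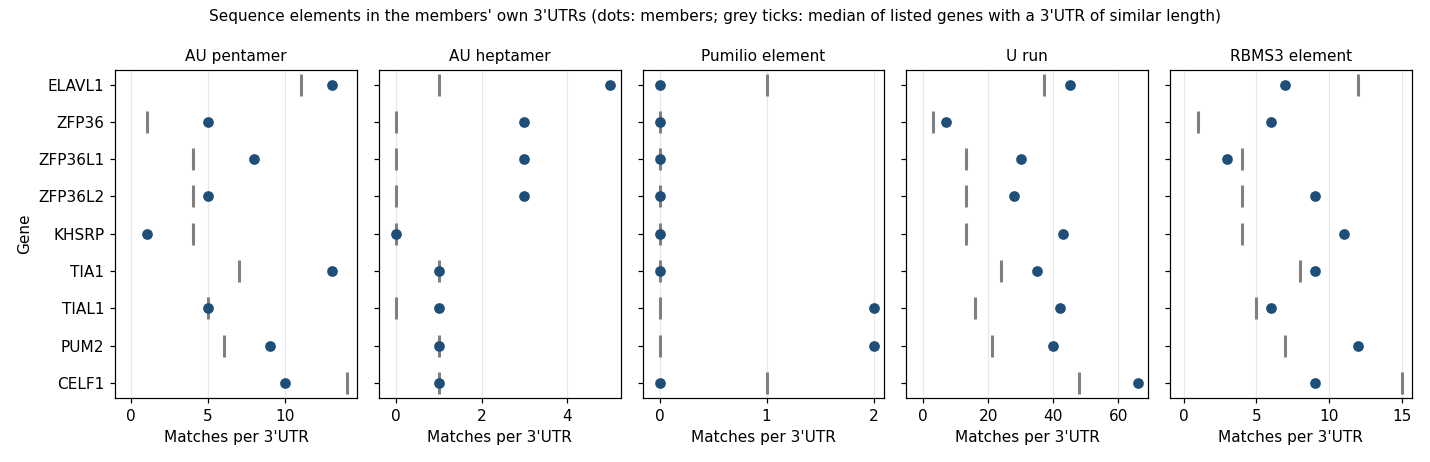
Matches per 3′UTR (x axes, linear, one scale per panel) for the AU pentamer ATTTA, the AU heptamer TATTTAT, the Pumilio element TGTANATA, the U run TTTTT and the RBMS3 element in each member (circles, one gene per row), beside the median of listed genes with a 3′UTR of similar length (grey ticks). *ELAVL1* has 5 heptamers and each ZFP36 family member 3, and all 9 members lie to the right of the tick for the U run.

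U-rich sequence was searched as the run TTTTT, counted at every position, so that a longer run gives several matches. It was present in all 9 members and in 82.1% of all genes. Among genes of similar length the share with a U run was 78.0% for *ZFP36* and higher for the other members. Numbers ranged from 7 in *ZFP36* to 66 in *CELF1*. In every member the number was above the median at similar length, and it exceeded that of 63.2% of such genes for *ELAVL1* and of 97.2% for *KHSRP*. *KHSRP* had 43 matches against a median of 13, although its 3′UTR had the lowest A and U content of the group. These 43 matches fell into 16 separate runs, the longest of 13 bases. *TIAL1* had 42 matches in 17 runs, with the longest at 21 bases, and 86 matches in its longest annotated 3′UTR of 3863 bases.

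The Pumilio element occurred in 30.7% of all genes. *PUM2* had 2 matches in its own 3′UTR, more than 83.9% of 1873 genes of similar length. *TIAL1* also had 2, more than 87.2% of 1889 such genes. The remaining 7 members had no match in these 3′UTRs. Both matches in *PUM2*, from bases 425 and 685, shared bases with RBMS3 elements from bases 426 and 686. A Pumilio element with T at its free position always contains an RBMS3 element, so this overlap follows from the patterns. Neither match in *TIAL1* shared bases with an RBMS3 element.

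To place the members beside the element of the depleted protein, the RBMS3 element was counted in the same way. It was found in all 9 members, as in 85.0% of all genes, so its presence does not set the group apart. The pattern also admits AATAAA after A, G or T, which the study names as the canonical polyadenylation signal. The first matches in *TIAL1* and *CELF1* read AAATAAA, and how many other matches are of this kind was not counted. *PUM2* had 12 matches, *KHSRP* 11, and *ZFP36L2*, *TIA1* and *CELF1* 9 each. *ELAVL1* had 7, *ZFP36* and *TIAL1* 6 each, and *ZFP36L1* 3. At similar length, 6 members were above the median and *ELAVL1*, *ZFP36L1* and *CELF1* were below it. Of the 6, *TIA1* and *TIAL1* exceeded the median of genes of similar length by little, with 9 against 8 and 6 against 5. *ZFP36* had more matches than 92.6% of such genes and *KHSRP* more than 87.2%. *CELF1* had more than 22.6%, against a median of 15.

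Overlapping matches weigh on these numbers. The 11 matches in *KHSRP* formed 6 separate stretches, the longest of 15 bases, and the 6 in *ZFP36* formed 4. In *PUM2* and *ZFP36L2* no RBMS3 elements overlapped each other. In *ZFP36* all 6 lay from base 536 of the 3′UTR to base 694, so that the first shared bases with the last heptamer. A match is a description of the annotated sequence and does not show that a protein binds there.

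**Figure D3:**
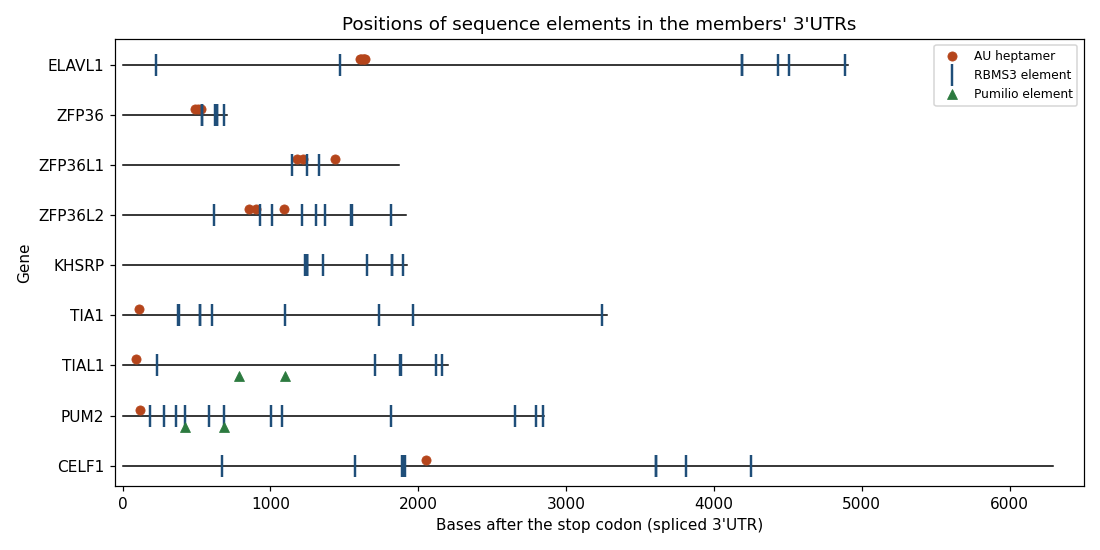
Spliced 3′UTRs of the 9 members, drawn to scale as lines from the stop codon (x axis, bases after the stop codon), with AU heptamers (circles), RBMS3 elements (vertical ticks) and Pumilio elements (triangles). The 5 heptamers of *ELAVL1* overlie each other between bases 1604 and 1644, and those of *ZFP36* lie next to its RBMS3 elements in the last part of a 3′UTR of 708 bases.

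The labelled cell type was checked against markers in the same table. The mesenchymal markers *VIM*, *AXL* and *CD44* had mean normalized counts of 69336, 35388 and 10047, and *SPARC* was not listed. The luminal receptors *ESR1* and *PGR* and the leukocyte marker *PTPRC* were not listed. *CDH1* had 31.6, *EPCAM* 107, *GATA3* 171 and the endothelial marker *PECAM1* 69.0. *KRT18*, a keratin of luminal cells, was abundant with 12689.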

How the data were processed

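Total RNA libraries of MDA-MB-231 cells were made with a stranded kit and sequenced with paired ends. The submitters' processing notes name Salmon, DESeq2 and hg38 without versions or roles. The authors deposited one table per gene, of which the signal used here is the mean normalized count over libraries. The other 5 numeric columns hold the authors' own comparison of knockdown and control cells (log2 fold change, its error, statistic, p-value, adjusted p-value) and were not used. A count test planned for values per library could therefore not be made, and a planned comparison of protein sequences was not made. Depth and precision of single libraries are unknown.

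Identifiers were matched to GENCODE release 44, where 15829 were found and 88 were not. The representative transcript was MANE Select, otherwise Ensembl canonical, otherwise the one with the longest coding sequence. Percentiles are the share of genes at or below a value. Elements were counted on the sense strand in 3′UTRs of at least 7 bases, overlaps included. Printed sites matched hg38. Functions passed 8 checks on simulated data. Members, lists and elements were chosen with earlier results of these data known. Named genes are all 9 members, *RBMS3*, the members' paralogs, markers, and the highest and lowest of a list of 38 related genes, of which a planned result is not reported here. Alternatives were protein-coding genes as the reference, other transcript lengths, the longest 3′UTR, and matches per kilobase. The scripts ran in Python 3.11.15 with pandas 2.3.3, SciPy 1.17.1 for intervals, numpy 2.4.6, and matplotlib 3.10.9 for drawing.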

Additional observations from a re-analysis of the deposited data

How the results depend on the processing

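Over 31 results and 42 alternatives, 23 stayed within the tolerance and 19 did not, all of the latter for single members or the range between them. The tolerance was a factor of 1.5 for counts and for levels per kilobase, and the 95% Wilson interval for percentiles, which is narrower. For every member the level per kilobase of coding length was outside the tolerance. Coding length is shorter than transcript length, so these levels rise whatever the counts are. Every count of members was within its tolerance. Above the median level stood 7 members among all genes and 6 among protein-coding genes, where *ZFP36L2* fell to percentile 47.7. Above the median per kilobase stood 6 with each definition of length. With coding length in place of transcript length, the range between the highest and the lowest member was 22.2-fold in place of 36.2-fold, and *ZFP36* was the lowest member in place of *TIA1*. More RBMS3 elements than the median of all genes were found in 8 members by number and in 6 per kilobase. Per kilobase of each gene's longest annotated 3′UTR, a setting outside the 42 alternatives, it was 5 members. With the longest annotated 3′UTR, the number of members with each element was the same, though *TIAL1* had 86 matches of TTTTT in place of 42.

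No paired analysis was possible because a mean over libraries holds no replicates. A count test, DESeq2 size factors, a filter on low counts, each replicate left out and a replicate block were not run for the same reason.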

Other observations

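A list of 38 other RNA binding proteins of 3′UTRs, fixed with earlier results of these data known, was placed on the same scale. Of these, 29 were among the listed genes, and 19 of the 29 were above the median of 153 counts per kilobase, as were 6 of the 9 members. *YBX1*, a cold shock domain protein that packages mRNA, was the highest with 6999 counts per kilobase, and *CPEB3*, a cytoplasmic polyadenylation element binding protein, the lowest with 10.5. *HNRNPD* (AUF1), another AU-rich element binding protein, had 2652 counts per kilobase, beside 2321 for *KHSRP*. The roquin genes *RC3H1* and *RC3H2*, which act on stem-loop decay elements, had 79.5 and 231. *IGF2BP2* had 629 and *IGF2BP3* 163 counts per kilobase, and *IGF2BP1* was not listed. *HNRNPD*, the roquins and the IGF2BP genes were named with their values already known. Of the *RBMS3* paralogs, *RBMS2* had 444 and *RBMS1* 116 counts per kilobase, against 32.1 for *RBMS3*. *RBMS3* is the target of the hairpins, and its mean includes knockdown cells in an unknown share. With coding length *RBMS3* had 207 counts per kilobase.

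*RBMS3* has a 3′UTR of 6524 bases with 17 matches to its own element, where the median of 678 genes of similar length was 16. It also had 21 pentamers ATTTA against a median of 15 and a single heptamer.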
